A study of Mus musculus with 14 samples.

Results

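The genes described here encode the enzymes that remove superoxide and hydrogen peroxide directly: the superoxide dismutases Sod1, Sod2 and Sod3, catalase (Cat) and the peroxiredoxins Prdx1, Prdx2, Prdx3, Prdx4, Prdx5 and Prdx6. They were taken by symbol, and all 10 were among the 27099 genes of the count table and among the 18152 genes with enough counts to be tested. RNA came from Nes-GFP+ bone marrow stromal cells (BMSCs), which carry a green fluorescent protein driven by regulatory elements of the nestin gene and were sorted into a Nes-GFP high and a Nes-GFP low population. The leukemic (AML) mice were primary, non-transplanted iMLL-AF9 mice, with rtTA at the ROSA26 locus and a human MLL-AF9 fusion under a tetracycline-response element, crossed to the Nes-GFP reporter. They were given doxycycline and taken once the white cell count in blood was high. They provided 2 Nes-GFP high and 4 Nes-GFP low libraries. Normal mice provided 2 Nes-GFP high and 6 Nes-GFP low libraries. They were given sucrose water as vehicle, and the methods describe age- and sex-matched young adults of both sexes. The paper calls the normal mice WT controls and does not list their transgenes for this sequencing. Leukemia and doxycycline went together throughout and cannot be told apart. The same holds for the MLL-AF9 transgene if the normal mice lacked it. Libraries came from 1 mouse or from pools of 2, without a record of which, so that p-values measure the spread between these libraries.

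Superoxide dismutases turn superoxide into hydrogen peroxide and oxygen: Sod1 in the cytosol with copper and zinc, Sod2 in the mitochondrial matrix with manganese, and Sod3 outside the cell. Catalase breaks hydrogen peroxide down in peroxisomes. Peroxiredoxins reduce peroxides through a reactive cysteine, which for most of them is restored by thioredoxin. Prdx1 and Prdx2 are cytosolic, Prdx3 mitochondrial, Prdx4 resident in the endoplasmic reticulum, Prdx5 spread over several compartments, and Prdx6 a member with a single reactive cysteine. Red cells are rich in Prdx2 and catalase.

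Levels are CPM, the counts of a gene scaled to a common library size after TMM normalization, and a library held 5615941 to 11436652 counts. Normal Nes-GFP high replicate 1 held 8213690 counts, but only 14842 genes had a count in it, against 18177 to 20197 in the others. Counts of 0 in that library, and differences that rest on it, are therefore uncertain. The libraries were uneven in cell markers. Summed CPM of 9 stromal markers such as Cxcl12 and Lepr, all measured, ranged from 405.3 to 53350. Summed CPM of 13 measured of 14 erythroid markers, among them hemoglobins and Car2, ranged from 34.8 to 6698, and that of 12 neutrophil and monocyte markers from 729.2 to 102000. CD45 had been a gate of the sort, yet its gene Ptprc was between 3.95 and 482.6 CPM. Nes itself was at 2.27 and 36.03 CPM in Nes-GFP high BMSCs of normal mice and at 32.3 and 26.7 CPM in those of AML mice. In the Nes-GFP low libraries it was between 0 and 5.70 CPM, so that normal Nes-GFP high replicate 1 lay within the Nes-GFP low range. Sequencing of sorted cells in bulk cannot tell fewer cells of a type from less RNA per cell.

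Processed pseudogenes stood beside 3 members at high identity, and these copies took a share of the reads, so the letters of 2 such pairs are shown first. Positions are from GENCODE M21 on GRCm38, the mm10 build. Prdx1 (ENSMUSG00000028691, chr4:116685544-116700822, plus strand) had its most counted copy in Gm7204 (chr16:48218605-48219201), with 97.5% identity and 15 differences over 597 coding bases. Prdx2 (ENSMUSG00000005161, chr8:84969587-84974834, plus strand) had Tdpx-ps1 (chr1:99790429-99791025), with 96.3% identity and 22 differences over 594 coding bases. Sod1 (ENSMUSG00000022982, chr16:90220754-90226329, plus strand) had Gm8566 (chr6:67205619-67206083), with 97.8% identity and 10 differences over 462 coding bases. The 90 bases with the most differences are printed for Prdx1 and Prdx2 and their copies, 5′ to 3′ in the sense direction, with the differing bases in capitals. They start at coding base 167 of Prdx1 and 7 of Prdx2, counted from the first base of the start codon.
Prdx1: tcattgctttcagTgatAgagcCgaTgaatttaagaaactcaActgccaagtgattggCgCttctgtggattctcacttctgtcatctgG
Gm7204: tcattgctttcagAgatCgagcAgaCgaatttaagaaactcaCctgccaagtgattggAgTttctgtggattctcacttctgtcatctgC
Prdx2: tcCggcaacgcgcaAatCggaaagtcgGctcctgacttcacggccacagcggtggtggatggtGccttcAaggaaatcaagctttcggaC
Tdpx-ps1: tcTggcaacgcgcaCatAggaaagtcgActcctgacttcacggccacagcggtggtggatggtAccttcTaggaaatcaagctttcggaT

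The 3 pairs also shared stretches with no difference at all, the longest being 115 bases for Prdx1 and Gm7204, 160 bases for Prdx2 and Tdpx-ps1 and 122 bases for Sod1 and Gm8566. Of the reads of each pair together, Gm7204 held 8.34% to 10.01% per library, Tdpx-ps1 4.86% to 9.996% and Gm8566 5.60% to 7.61%. The copies moved with their parents over the 14 libraries: each was the most similar of 10759 genes to its member on the log2(CPM + 1) scale, with Pearson's r of 0.94 for Prdx1, 0.99 for Prdx2 and 0.96 for Sod1. Reads of parent and copy cannot be separated here, and this likeness includes reads that could have been assigned to either. A second copy of Prdx1, Gm21399, had 4.56% of the count of Prdx1, while Prdx6b, a relative of Prdx6 at 92.9% identity, had 0.13% of the count of Prdx6. Adding the counts of all copies with at least 95% identity to Prdx1, Prdx2 and Sod1 moved none of their 15 fitted differences by more than 0.015 on the log2 scale. Exons of Prdx2 also overlap those of Rnaseh2a and Junb on the other strand, and exons of Prdx5 those of Trmt112. The counting is not stated to use strand, so that the counts of Prdx2 and Prdx5 from these shared stretches are uncertain.

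Levels of different genes were compared per kilobase of joined exons, as means ± SD over the 14 libraries. The highest were Prdx2 at 147.2 ± 152 CPM per kb, Prdx1 at 140.7 ± 22.5 and Prdx5 at 139.8 ± 93.7, followed by Prdx4 at 101 ± 67.8 and Prdx6 at 97.2 ± 65.7. The SDs of these 5 genes reach into each other. Prdx3 was at 59.6 ± 45.4, Sod1 at 49.4 ± 19.5, Sod3 at 39.3 ± 23.6, Cat at 31.6 ± 14.5 and Sod2 at 11.6 ± 5.03. The order depends on the length used, since the joined exons of Sod1 cover 3970 bases against 641 of its coding transcript. Per kb of coding transcript, a choice made after seeing the data, Prdx1 was at 488 ± 78.2, Prdx5 at 396 ± 265, Sod1 at 306 ± 121 and Prdx2 at 299 ± 309, with Sod2 still lowest at 19.8 ± 8.59. Summed over the 10 genes, without length correction, CPM ranged from 1655 in AML Nes-GFP low replicate 1 to 3910 in AML Nes-GFP low replicate 4. Prdx2 made up 3.17% of this sum in AML Nes-GFP high replicate 1 and 39.5% in normal Nes-GFP low replicate 5, and Prdx1 11.4% to 28.3%.

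**Figure D1:**
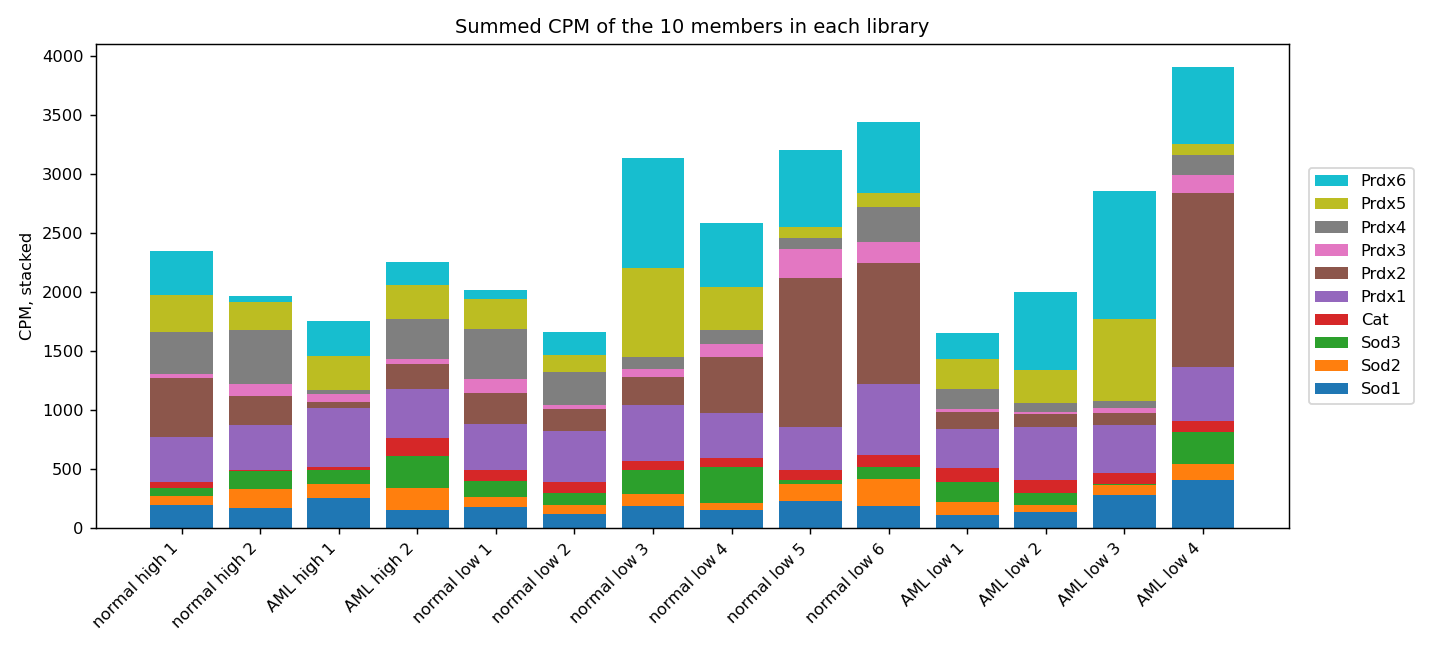
Stacked bars give the CPM (scaled by TMM, not corrected for gene length) of each of the 10 genes in each library, with the libraries on the horizontal axis by group and replicate. The sum ranges from 1655 to 3910 CPM, and Prdx2 and Prdx6 make up large and uneven shares while the Prdx1 segment stays near the same height.

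Prdx1 was the steadiest of the 10. It was at 498 and 417 CPM in AML and at 383 and 388 CPM in normal Nes-GFP high libraries. In AML Nes-GFP low BMSCs it was at 329, 453, 407 and 455 CPM, and in normal Nes-GFP low BMSCs between 366 and 607 CPM with a median of 414. Its highest library was 1.84 times its lowest, and its SD on the log2 scale over all libraries, 0.22, was at percentile 0.21 of the 1907 genes with a mean above 100 CPM, whose median SD was 0.80. Sod1 (SD 0.50) and Sod2 (SD 0.60) also lay below that median, whereas Prdx2 (1.42), Prdx6 (1.31), Cat (1.25), Sod3 (1.24), Prdx4 (1.13), Prdx3 (1.10) and Prdx5 (0.91) lay above it. Cat and Prdx3, with means of 82.6 and 88.1 CPM, were themselves below the level of the genes they were set against.

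**Figure D2:**
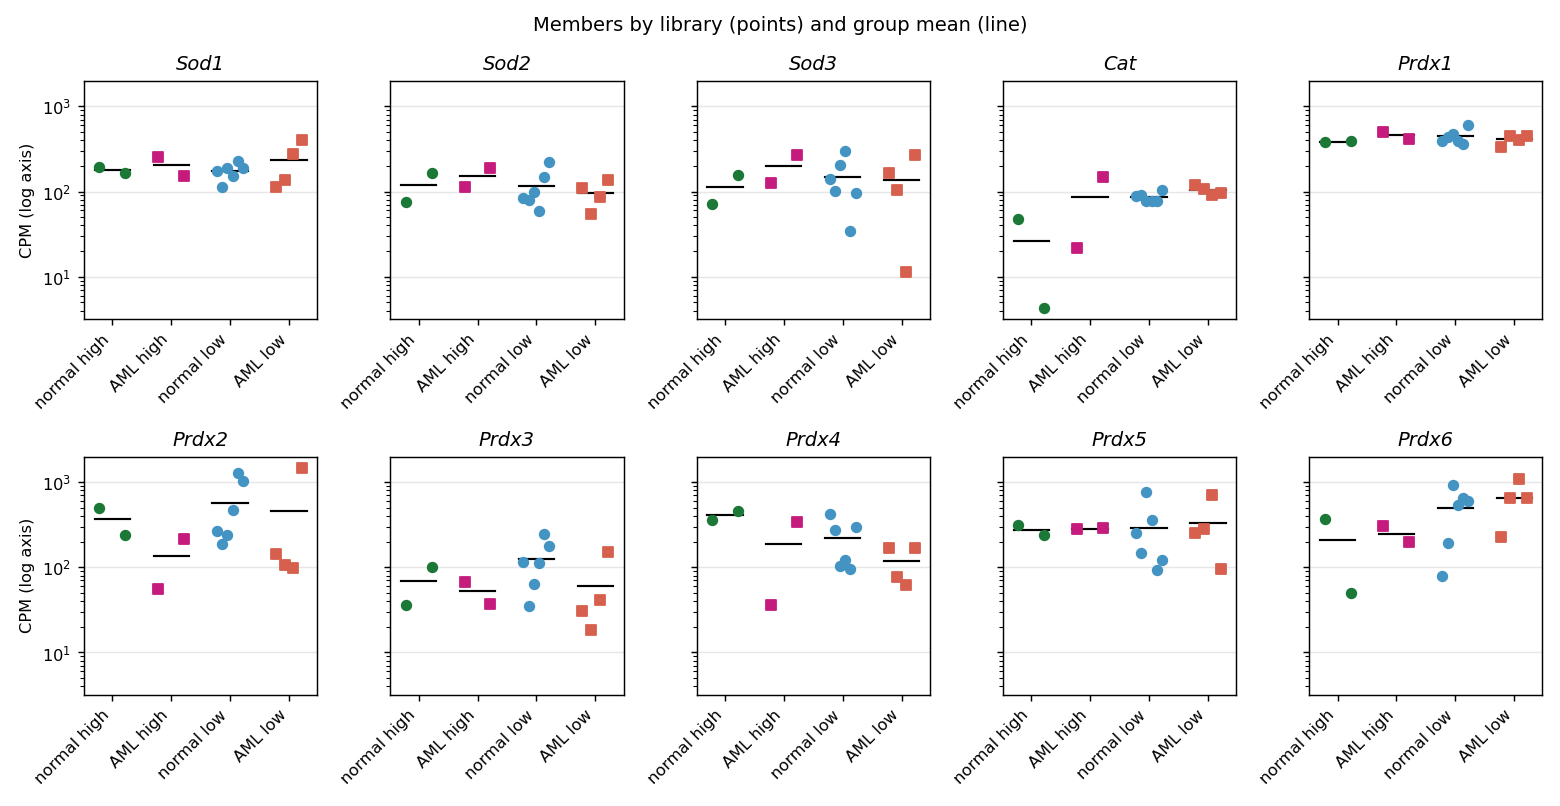
Each panel is 1 gene, with CPM on a shared log axis, 1 point per library and a line at the group mean, for normal and AML Nes-GFP high and low BMSCs. Prdx1 lies between 329 and 607 CPM throughout, Prdx2 spans 55.7 to 1481 CPM, and Cat is low in 3 of the 4 Nes-GFP high libraries.

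Sod1 was at 257 and 151 CPM in AML and at 193 and 165 CPM in Nes-GFP high BMSCs of normal mice. The AML Nes-GFP low libraries held 113, 137, 277 and 407 CPM, and the normal ones 114 to 229 CPM with a median of 181. AML and normal libraries overlapped in both populations. Sod2 was at 113 and 189 CPM in AML and at 75.5 and 163 CPM in Nes-GFP high BMSCs of normal mice. In Nes-GFP low BMSCs it was at 109, 55.2, 87.1 and 137 CPM in AML and between 59.2 and 225 CPM, with a median of 92.0, in normal mice. The ranges of Sod2 overlapped in every comparison. Sod3, the extracellular enzyme, was at 125 and 272 CPM in AML and at 72.2 and 156 CPM in Nes-GFP high BMSCs of normal mice. The AML Nes-GFP low libraries held 164, 105, 11.4 and 266 CPM, so that replicate 3 stood far below the other 3, and the normal ones 34.3 to 302 CPM with a median of 122. Replicate 3 of AML Nes-GFP low was also the library with the lowest summed stromal markers, 405.3 CPM. Sod3 and the stromal sum had Pearson's r of 0.53 (permutation p = 0.05004, adjusted 0.2335 over 70 relations of members with marker lists). Spearman's rho was 0.26 (permutation p = 0.3766, adjusted 0.7188). Without the 2 libraries farthest from the median of that sum r was 0.19, and within the normal Nes-GFP low libraries 0.072. The genes most similar to Sod3 over the 14 libraries were Ecm1 (r = 0.86) and Gas1 (r = 0.85).

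Catalase was steady across the Nes-GFP low and uneven across the Nes-GFP high libraries. It was at 76.5 to 104 CPM in the 6 normal and at 91.4 to 120.3 CPM in the 4 AML Nes-GFP low libraries, within 1.35 and 1.32 times of each other. Among Nes-GFP high libraries it was at 47.7 and 4.26 CPM in normal and at 21.8 and 149.7 CPM in AML mice. The level of 4.26 CPM rested on 30 counts. Both normal Nes-GFP high libraries thus lay below all 6 normal Nes-GFP low libraries, as was so for 7.86% of tested genes. The AML Nes-GFP high libraries lay on either side of the AML Nes-GFP low ones. In normal mice Cat was 1.73 lower on the log2 scale in Nes-GFP high than in Nes-GFP low BMSCs (log2 fold change -1.73, SE 0.85, 95% interval -3.55 to 0.09, edgeR unadjusted p = 0.0612, adjusted p = 0.460). This was the largest difference among the 10 genes in that comparison, and it did not pass the test. It was -4.48 without normal Nes-GFP high replicate 1 and -0.78 without replicate 2. Summed pericyte and smooth muscle markers were at 235.8 and 1621 CPM in these Nes-GFP high libraries, against 61.5 to 235.3 CPM in the normal Nes-GFP low ones. In the library with 1621 CPM, Rgs5 was at 1131 and Notch3 at 377 CPM, while Tagln was at 4.26 and Mcam at 0.426 CPM. Cat and that sum had Pearson's r of -0.63 (permutation p = 0.02065, adjusted 0.1205) and Spearman's rho of -0.15 (permutation p = 0.6033). This r was -0.24 without the 2 most extreme libraries and 0.31 within the normal Nes-GFP low libraries. The part of these markers in the difference was not tested further. With the erythroid sum Cat had Pearson's r of 0.051 (permutation p = 0.8851, adjusted 0.9532). Spearman's rho was -0.36 (permutation p = 0.2033, adjusted 0.6539). Without the 2 most extreme libraries this r was 0.33, and within the normal Nes-GFP low libraries -0.14 (exact permutation p = 0.8056). Over all libraries Cat was most similar to Arfrp1 and Pcyt2 (r = 0.93 each).

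Prdx2 was at 55.7 and 215 CPM in AML and at 502 and 239.98 CPM in Nes-GFP high BMSCs of normal mice, with both AML libraries below both normal ones. In AML Nes-GFP low BMSCs it was at 143, 106, 98.3 and 1481 CPM. In normal Nes-GFP low BMSCs it was between 185 and 1265 CPM with a median of 366, and replicates 5 and 6 held 1265 and 1023 CPM. These 3 libraries, AML Nes-GFP low replicate 4 and normal Nes-GFP low replicates 5 and 6, also had the highest summed erythroid markers, 5286, 6698 and 5852 CPM. Car2, a gene of this list, was at 2473, 3089 and 2415 CPM in them. Hemoglobin genes ranked the libraries in part otherwise. Hbb-bs was at 597, 604 and 698 CPM in them and at 728 CPM in normal Nes-GFP high replicate 1. Hba-a1 was at 415, 593 and 648 CPM in them and at 586 CPM in that library, where Prdx2 was at 502 CPM. Over the 14 libraries Prdx2 and the erythroid sum, both on the log2(CPM + 1) scale, had Pearson's r of 0.83 (permutation p = 0.00017, adjusted 0.00438 over 70 relations of members with marker lists) and Spearman's rho of 0.85 (permutation p = 0.00015, adjusted 0.0035). Without the 2 libraries farthest from the median of the erythroid sum r was 0.90, and within the 6 normal Nes-GFP low libraries it was 0.95 (exact permutation p = 0.0139). In the AML Nes-GFP low library with 1481 CPM of Prdx2, Gata1, a transcription factor of the erythroid lineage, was at 222 CPM and the hemoglobin gene Hba-a1 at 415. Alas2, which makes heme in red cell precursors, was at 0.652 CPM there and Slc4a1, which exchanges anions across the membrane of red cells, at 0. The part of red cell precursors in the level of Prdx2 was not tested further.

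Prdx3, the mitochondrial peroxiredoxin, was at 67.4 and 36.6 CPM in AML and at 35.9 and 101 CPM in Nes-GFP high BMSCs of normal mice. In Nes-GFP low BMSCs it was at 30.5, 18.2, 41.8 and 152 CPM in AML and between 35.4 and 248 CPM, with a median of 113, in normal mice. Replicate 4 of the AML and replicates 5 and 6 of the normal Nes-GFP low libraries were again the highest. Prdx2 and Prdx3 were the pair of members with the highest correlation (r = 0.72, 14 libraries). With the erythroid sum Prdx3 had r of 0.74 (permutation p = 0.0036, adjusted 0.0504) and rho of 0.78 (permutation p = 0.00156, adjusted 0.0218). The value was 0.69 without the 2 most extreme libraries and 0.84 within the normal Nes-GFP low libraries (exact permutation p = 0.0347). The genes most similar to Prdx3 were Cpox (r = 0.88), an enzyme of heme synthesis, and Blvrb (r = 0.87), a reductase abundant in red cells. Prdx2 was followed, after its pseudogene, by Atpif1 (r = 0.94), an inhibitor of the mitochondrial ATP synthase.

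Prdx4, which works in the endoplasmic reticulum, was at 36.3 and 343 CPM in AML and at 356 and 460 CPM in Nes-GFP high BMSCs of normal mice, with no overlap. The AML Nes-GFP low libraries held 170, 76.2, 62.8 and 169.8 CPM, and the normal ones 94.9 to 428 CPM with a median of 197, so that these groups overlapped. Prdx4 was correlated with the stromal markers over the libraries (r = 0.86, permutation p = 0.00022, adjusted 0.00438, rho = 0.89, permutation p = 9e-05, adjusted 0.0035). Without the 2 most extreme libraries r was 0.84, and within the normal Nes-GFP low libraries 0.91 (exact permutation p = 0.0208). The stromal sum was 2069 and 34510 CPM in AML against 8041 and 51550 CPM in normal Nes-GFP high libraries. In Nes-GFP low libraries it was 405.3 to 17900 CPM in AML and 2929 to 53350 CPM in normal mice. Prdx4 was most similar to Nlrc5 (r = 0.94), a regulator of MHC class I genes, and H2-K1 (r = 0.93), which is such a gene.

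Prdx6 ran the other way. It was at 302 and 196 CPM in AML and at 368 and 50.2 CPM in Nes-GFP high BMSCs of normal mice. The AML Nes-GFP low libraries held 225, 659, 1082 and 652 CPM and the normal ones 79.8 to 934 CPM with a median of 574. The lowest levels, 50.2 CPM in replicate 2 of normal Nes-GFP high and 79.8 CPM in normal Nes-GFP low replicate 1, were in libraries with stromal sums of 51550 and 53350 CPM. The highest, 1082 CPM, was in AML Nes-GFP low replicate 3. Against the stromal sum Prdx6 had r of -0.83 (permutation p = 0.00025, adjusted 0.00438) and rho of -0.87 (permutation p = 0.00012, adjusted 0.0035). It was -0.77 without the 2 most extreme libraries and -0.91 within the normal Nes-GFP low libraries (exact permutation p = 0.00417). Against the pericyte and smooth muscle sum r was -0.84 (permutation p = 0.00012, adjusted 0.00438) and rho -0.81 (permutation p = 0.00072, adjusted 0.0126). Without the 2 most extreme libraries this r was -0.68, and within the normal Nes-GFP low libraries -0.88 (exact permutation p = 0.0181). With the neutrophil and monocyte sum it was 0.70 (permutation p = 0.00544, adjusted 0.0626), with rho of 0.76 (permutation p = 0.0024, adjusted 0.028). Without the 2 most extreme libraries that r was 0.57, and within the normal Nes-GFP low libraries 0.69 (exact permutation p = 0.114). The genes most similar to Prdx6 were Gm13232 (r = 0.95) and Gm13167 (r = 0.95).

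Prdx5 was at 281 and 289 CPM in AML and at 313 and 240.1 CPM in Nes-GFP high BMSCs of normal mice. Its Nes-GFP low levels were at 250.2, 282, 699 and 94.3 CPM in AML and between 91.9 and 758 CPM, with a median of 202, in normal mice. The highest libraries, AML Nes-GFP low replicate 3 and normal Nes-GFP low replicate 3, had the highest neutrophil and monocyte sums, 94950 and 102000 CPM. The correlation with that sum (r = 0.69, permutation p = 0.00639, adjusted 0.0626, rho = 0.72, permutation p = 0.00497, adjusted 0.0469) was 0.42 without the 2 most extreme libraries and 0.75 within the normal Nes-GFP low libraries (exact permutation p = 0.0972). It rested in part on those libraries. Prdx5 was most similar to Anxa1 (r = 0.95) and Gm2a (r = 0.92). The 3 libraries where Prdx2 was highest were the 3 where Prdx5 was between 91.9 and 123 CPM, its lowest levels. Of the 70 relations between a member and a marker sum, 4 passed an adjusted p of 0.05 by both coefficients: Prdx2 with erythroid, Prdx4 and Prdx6 with stromal, and Prdx6 with pericyte and smooth muscle markers. The parts of these cell types in the levels of the members were not tested beyond these correlations.

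**Figure D3:**
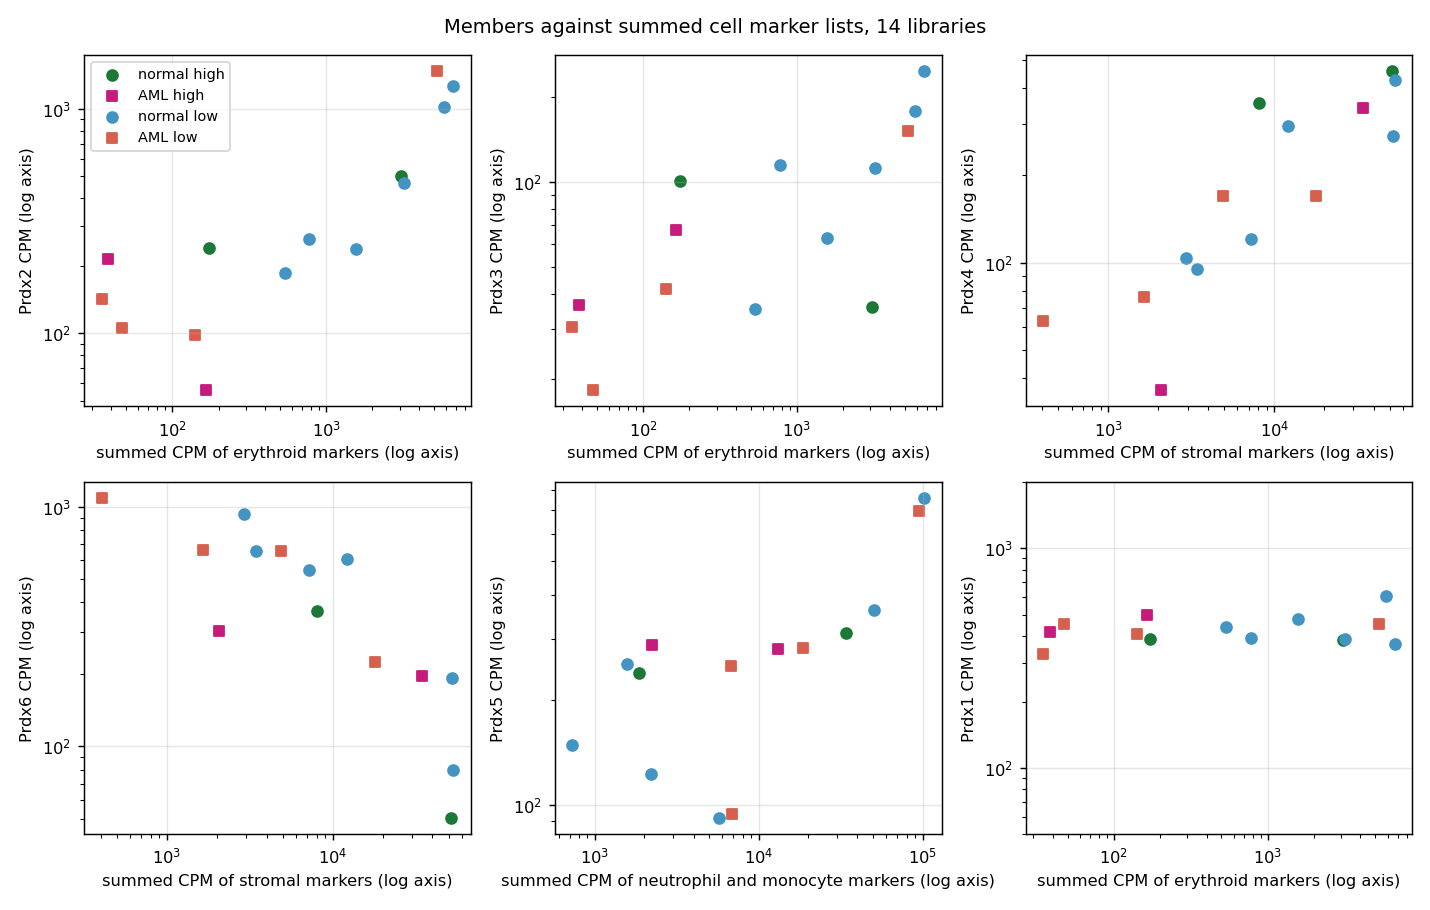
CPM of a member (vertical, log axis) against the summed CPM of a marker list (horizontal, log axis), 1 point per library, coloured by group. Prdx2 and Prdx3 are higher in libraries with more erythroid markers (r = 0.83 and 0.74), Prdx4 is higher (r = 0.86) and Prdx6 lower (r = -0.83) in those with more stromal markers, Prdx5 is highest in the 2 libraries with the most neutrophil and monocyte markers, and Prdx1 is nearly level.

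The comparison of AML with normal mice asks whether the stromal cells of leukemic marrow express more of these enzymes. In Nes-GFP high BMSCs none of the 10 passed edgeR's quasi-likelihood test with Benjamini-Hochberg adjustment, and 0% of all tested genes did in either direction. None had an unadjusted p under 0.05, against 7.62% of tested genes higher and 4.54% lower, and none was called by DESeq2, against 6.24% higher and 4.27% lower. Libraries did not overlap for Prdx1, which was higher in AML, as 16% of tested genes were, and for Prdx2 and Prdx4, which were lower in AML, as 11.5% were. Of the 10, 7 had fitted values above 0 (52.1% of tested genes) and 3 below 0 (45%). The largest fitted difference was that of Cat, with a log2 fold change of 1.72 (SE 0.95, 95% interval -0.33 to 3.78, edgeR adjusted p = 0.475). This value rested on single libraries, and was 4.46 without normal Nes-GFP high replicate 1 and -0.31 without AML Nes-GFP high replicate 2. Prdx2 was at -1.45 (SE 1.34, edgeR adjusted p = 0.784) and Prdx4 at -1.10 (SE 0.97, edgeR adjusted p = 0.759). Without AML Nes-GFP high replicate 2 they were -2.78 and -3.53, and without replicate 1 -0.82 and -0.27. Prdx2 was -0.70 without normal Nes-GFP high replicate 1. The erythroid sums were 38.3 and 164.6 CPM in these AML and 172.8 and 3083 CPM in these normal libraries, and did not overlap. Prdx1 was at 0.25, with a 95% interval from -0.65 to 1.15. The median size of the log2 difference was 0.37 for the 10 genes and 1.11 for all tested genes.

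In Nes-GFP low BMSCs, with 4 AML and 6 normal libraries, none of the 10 passed edgeR's adjusted test (0% of tested genes in either direction), none had an unadjusted p under 0.05 (2.64% higher and 2.9% lower), and DESeq2 called none (0.208% higher and 0.473% lower). AML and normal libraries overlapped for all 10 (no overlap for 0.441% of tested genes higher and 0.667% lower). Fitted values were above 0 for 4 of the 10 (50.2% of tested genes) and below 0 for 6 (49.8%). Prdx3 had the largest difference, a log2 fold change of -1.05 (SE 0.69, 95% interval -2.54 to 0.45, edgeR adjusted p = 0.9999), followed by Prdx4 at -0.87 (SE 0.64, 95% interval -2.24 to 0.50, edgeR adjusted p = 0.9999). That of Prdx3 was -2.02 without AML Nes-GFP low replicate 4, and that of Prdx4 -0.57 without normal Nes-GFP low replicate 1. Sod1 was at 0.42, with a 95% interval of -0.45 to 1.28, or at 0.031 without AML Nes-GFP low replicate 4, and Prdx1 at -0.11, with an interval of -0.69 to 0.47. Prdx2 was at -0.33 with an interval of -2.18 to 1.52. It moved to -2.27 without AML Nes-GFP low replicate 4 and to 0.08 without normal Nes-GFP low replicate 5, both libraries rich in erythroid markers. The intervals of Sod3, Cat, Prdx5, Prdx6 and Sod2 also held 0. The median size of the difference was 0.30 for the 10 genes and 0.54 for all tested genes.

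**Figure D4:**
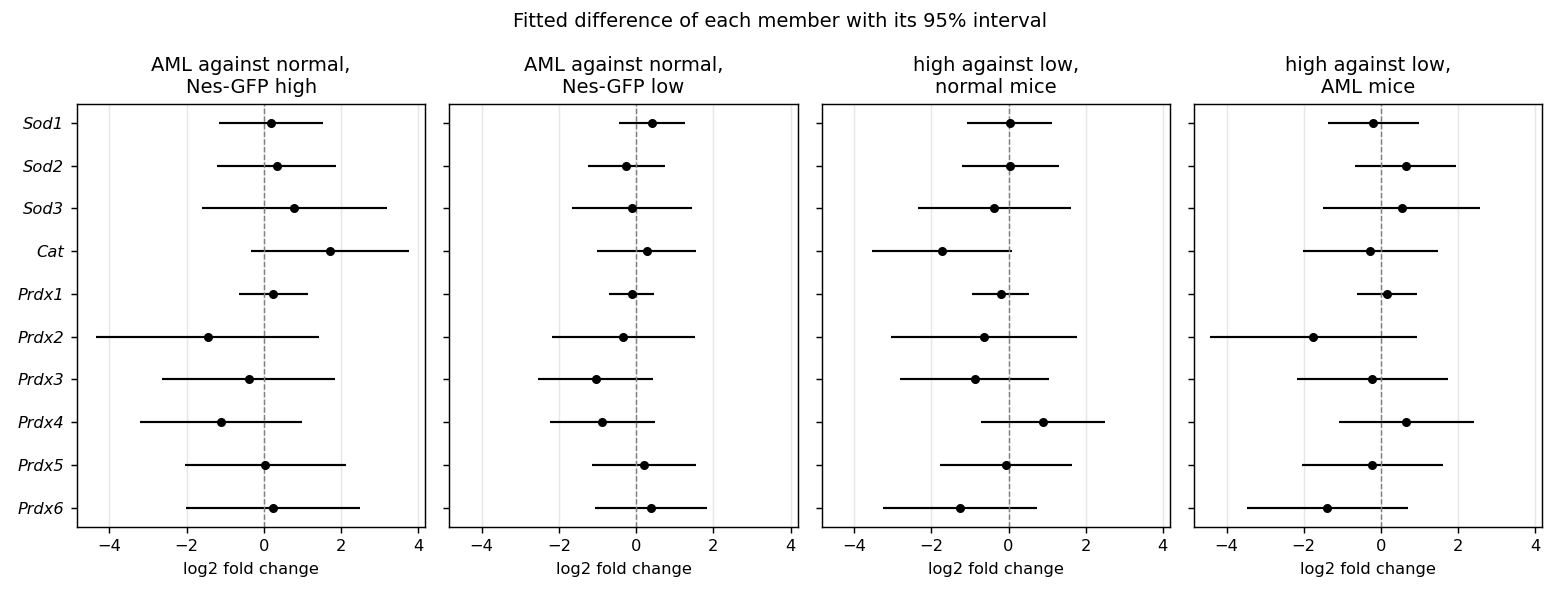
Log2 fold changes from the edgeR fit (points) with their 95% intervals (bars) for the 10 genes in 4 comparisons, with 0 marked by a dashed line. Every interval holds 0, the intervals of Prdx1 are the narrowest, and those of Cat lie mostly above 0 for AML against normal Nes-GFP high and mostly below 0 for high against low BMSCs in normal mice.

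The populations were compared within each kind of mouse. In normal mice none of the 10 passed edgeR's adjusted test (0% of tested genes in either direction), none had an unadjusted p under 0.05 (2.1% higher and 9.14% lower in Nes-GFP high), and DESeq2 called none (0.621% higher and 10.4% lower). Libraries did not overlap for Cat alone, as for 7.86% of tested genes lower and 3.47% higher. Fitted values were above 0 for 3 of the 10 (41.1% of tested genes) and below 0 for 7 (58.4%). After Cat, the largest differences were those of Prdx6 at -1.26 (SE 0.92, edgeR adjusted p = 0.601) and Prdx4 at 0.89 (SE 0.75, edgeR adjusted p = 0.658). That of Prdx6 was -3.46 without normal Nes-GFP high replicate 1 and -0.37 without replicate 2. Sod1 and Sod2 were at 0.03 and 0.05, but the signs of both turned when libraries were scaled by their totals, to -0.19 and -0.27. That scaling moved the median of all genes by -0.224 on the log2 scale. In AML mice the 10 were again all uncalled by edgeR (0% in either direction) and by unadjusted p (2.5% higher and 6.48% lower), and by DESeq2 (0.601% higher and 6.45% lower), and all overlapped (no overlap for 6.91% higher and 8.83% lower). Fitted values were above 0 for 4 of the 10 (46.1% of tested genes) and below 0 for 6 (53.2%). The largest differences were Prdx2 at -1.75 (SE 1.24, edgeR adjusted p = 0.659) and Prdx6 at -1.39 (SE 0.97, edgeR adjusted p = 0.652). That of Prdx2 was 0.23 without AML Nes-GFP low replicate 4 and -3.00 and -1.03 without AML Nes-GFP high replicates 2 and 1. The comparisons within normal and AML mice share libraries with those of AML against normal mice.

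The AML effect was also compared between the populations. None of the 10 passed edgeR's adjusted test of this difference (0% of tested genes in either direction), none had an unadjusted p under 0.05 (6.41% with a larger and 3.55% with a smaller AML effect in Nes-GFP high), and DESeq2 called none (3.28% and 1.79%). Fitted values were above 0 for 5 of the 10 (53.5% of tested genes) and below 0 for 5 (46.5%). The difference was largest for Cat, at 1.45 on the log2 scale (SE 1.11, 95% interval -0.95 to 3.85, edgeR adjusted p = 0.802), and that of Prdx2 was -1.13 (SE 1.57, edgeR adjusted p = 0.9999). Single libraries moved that of Cat to between -0.59 (without AML Nes-GFP high replicate 2) and 4.21 (without normal Nes-GFP high replicate 1), and that of Prdx2 to between -2.44 (without AML Nes-GFP high replicate 2) and 0.79 (without AML Nes-GFP low replicate 4). Intervals were widest for Prdx2, from -4.51 to 2.26, and narrowest for Prdx1, from -0.71 to 1.43.

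Genes that serve the same enzymes were described by lists. In none of them did edgeR call a gene after adjustment in any comparison. The median of all tested genes was 0.08 for AML against normal Nes-GFP high and 0.00 for Nes-GFP low BMSCs, and -0.27 for high against low BMSCs of normal and -0.10 of AML mice. The thioredoxin system, which restores peroxiredoxins, had 13 genes tested, with a median log2 fold change in AML of 0.04 in Nes-GFP high and -0.19 in Nes-GFP low BMSCs. Its gene with the smallest p in Nes-GFP low BMSCs was Srxn1, sulfiredoxin, which repairs overoxidised peroxiredoxins. Srxn1 was between 8.41 and 32.1 CPM in AML and between 24.1 and 107 CPM in normal Nes-GFP low libraries, and the groups overlapped. Its log2 fold change was -1.75 (SE 0.69, edgeR unadjusted p = 0.0239, adjusted p = 0.772, DESeq2 adjusted p = 0.310). Txnrd3, a thioredoxin reductase, was at 0 and 78.9 CPM in the AML Nes-GFP high libraries, so that its mean rests on 1 library.

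Of 9 genes for the supply of copper and manganese to the dismutases, 2 were higher and 1 lower with an unadjusted p under 0.05 in AML against normal Nes-GFP high BMSCs, beside 7.62% and 4.54% of all tested genes, and the median of the list was 0.93. Ccs, the copper chaperone of Sod1, was at 8.79 and 62.7 CPM in AML and at 78.9 and 194.6 CPM in normal libraries. Its log2 fold change was -1.94 (SE 0.89, edgeR unadjusted p = 0.0474, adjusted p = 0.403, DESeq2 adjusted p = 0.0950), while Sod1 itself was at 0.19. Leaving out 1 library moved Ccs to between -3.97 (without AML Nes-GFP high replicate 1) and -1.16 (without AML Nes-GFP high replicate 2), and it was -1.20 without normal Nes-GFP high replicate 2. The metal importer Slc39a14, which carries manganese, was at 78.8 to 106.5 CPM in AML and at 0.567 and 16.01 CPM in normal libraries, and Slc39a8, of the same family, at 21.1 to 28.3 CPM in AML and at 0 and 0.284 CPM in normal libraries. The 0 of Slc39a8 was in normal Nes-GFP high replicate 1, where the fewest genes had a count. DESeq2 called both importers (adjusted p = 0.0378 and 0.00705), as it did 6.24% of all tested genes in that direction, and edgeR neither after adjustment. In Nes-GFP low BMSCs no gene of this list had an unadjusted p under 0.05, and its median was -0.05.

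Among 18 targets of NRF2, the factor that switches on antioxidant genes, the median AML difference was -0.15 in Nes-GFP high and 0.17 in Nes-GFP low BMSCs. In Nes-GFP high against low BMSCs, 13 of the 18 had values below 0 in normal and 13 in AML mice, beside 58.4% and 53.2% of all tested genes. The medians of the list were -0.21 and -0.29. Tkt, transketolase of the pentose phosphate pathway, was at 9.36 and 28.8 CPM in normal Nes-GFP high and at 82.9 to 411 CPM in normal Nes-GFP low libraries, a log2 fold change of -3.83 (SE 0.90, edgeR unadjusted p = 0.000875, adjusted p = 0.235), which DESeq2 called with an adjusted p of 3.2e-05. In AML mice Tkt was at 32.5 and 58.5 CPM in Nes-GFP high and at 200.4 to 570.1 CPM in Nes-GFP low libraries. Gclc, the catalytic subunit of glutamate-cysteine ligase in glutathione synthesis, was at 0.209 and 0.867 CPM in AML Nes-GFP high and at 11.04 to 42.7 CPM in AML Nes-GFP low libraries. In normal mice it was at 0 and 1.56 against 0.429 to 92.5 CPM. Its partner Gclm was at 8.79 and 21.8 against 52.2 to 336.5 CPM in normal mice. The groups did not overlap for Tkt in either kind of mouse, for Gclc in AML mice or for Gclm in normal mice, as for 7.86% of all tested genes lower in Nes-GFP high BMSCs of normal and 8.83% of AML mice.

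Of 9 tested regulators of antioxidant genes, Bach1, a repressor of NRF2 targets, had no count in either normal Nes-GFP high library and was at 0.619 and 26.2 CPM in the AML ones. Normal Nes-GFP high replicate 1 was the library where the fewest genes had a count. Foxo4 was at most at 6.60 CPM in AML Nes-GFP low and 0.203 CPM in normal Nes-GFP low libraries. Of 9 tested sources of superoxide and hydrogen peroxide, all had values above 0 in AML against normal Nes-GFP low BMSCs, with a median of 0.84, and 8 of 9 below 0 in Nes-GFP high BMSCs, with a median of -0.93. Of all tested genes 50.2% were above 0 in the first and 45% below 0 in the second comparison. No gene of this list had an unadjusted p under 0.05 in either. The neutrophil and monocyte markers had medians of 0.84 and -1.08 in the same comparisons, and the part of such cells in these values was not tested. Nox4, an oxidase of this list, was at 0 and 0.124 CPM in AML Nes-GFP high and at 0 to 35.03 CPM in AML Nes-GFP low libraries.

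Of 22 peroxisome genes, the surroundings of catalase, 11 had values above and 11 below 0 in AML against normal Nes-GFP high BMSCs, with a median of -0.11, beside 52.1% and 45% of all tested genes, and the median in Nes-GFP low BMSCs was -0.29. In normal mice, where Cat was lower in Nes-GFP high BMSCs without passing the test, the median of the list for high against low was 0.00. Pex16, which takes part in forming the peroxisome membrane, was at 2.90 and 3.26 CPM in Nes-GFP high against 13.98 to 70.6 CPM in Nes-GFP low BMSCs. Its edgeR unadjusted p was 0.00714 (adjusted p = 0.318) and its DESeq2 adjusted p 0.00149. Hsd17b4, an enzyme of peroxisomal fatty acid breakdown, was at 40.7 and 239 CPM in Nes-GFP high against 29.5 to 49.2 CPM in Nes-GFP low BMSCs. Its edgeR unadjusted p was 0.00601 (adjusted p = 0.297) and its DESeq2 adjusted p 0.0182. Its log2 fold change of 1.84 was 0.13 without normal Nes-GFP high replicate 2. DESeq2 called 10.4% of tested genes lower and 0.621% higher in this comparison of normal mice. Pex11a was at 4.53 to 40.3 CPM in AML and at 0 to 8.61 CPM in normal Nes-GFP low libraries. Its edgeR unadjusted p was 0.0376 (adjusted p = 0.843) and its DESeq2 adjusted p 0.564.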

How the data were processed

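The deposited values are raw read counts, given as whole numbers for each gene symbol and not normalized. Per the labels and the paper's methods, the authors amplified cDNA from polyadenylated RNA with Smart-seq2, used Trim Galore 0.4.1 for trimming, TopHat2 2.1.0 for alignment against mm10, and featureCounts with an Ensembl annotation for counting. No strand setting is given in the sources used here. The labels name a sort on GFP+ CD45- CD31- DAPI- cells after red cell lysis, and the paper adds Ter119. The table held 2 further library columns that belong to no mapped sample and were not used, and 13 symbols on 2 lines each.

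All genes were tested with edgeR 4.0.16 (quasi-likelihood test, R 4.3.3) on all 14 libraries in 4 groups, with TMM, filterByExpr (minimum count 10) and Benjamini-Hochberg adjusted p under 0.05, two-sided; the 95% intervals use the fit's moderated t quantiles. The members and lists were chosen with earlier results of these data known. The genes named are the members, up to 3 genes of each related list with the smallest p per comparison, where the unadjusted p was under 0.05, cell markers that moved with a member, and for each member the 2 most similar genes among those averaging 10 CPM or more. Marker correlations used log2(CPM + 1) with 100000 permutations, two-sided. Near-copies were found by matching coding sequences to GENCODE M21 transcripts with BLAST+ 2.17.0. Alternatives were DESeq2 1.42.0, DESeq2 size factors, library totals, no filter, a mean of at least 10 CPM, the compared groups alone, a replicate block and each library left out. Added after seeing the data were the counts of near-copies, the length of the coding transcript, and the same alternatives for genes of the related lists. The steps were tested on simulated data. Pairs of libraries of a group were no copies of each other (chi-square of 89.7 to 388 for each degree of freedom). Totals of 5615941 to 11436652 counts per library set the precision, reads carried no molecular identifiers, and the spread between libraries exceeded counting error. Some items are not reported here.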

Additional observations from a re-analysis of the deposited data

Results flagged for a closer look

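Among 20 sets of levels tested, 1 library stood apart from the rest of its group, and chance alone gives about 1 in 20. Prdx2 was at 1481 CPM in AML Nes-GFP low replicate 4, against 143.1 CPM in the next highest of the 4 libraries, a gap of 0.968 of the whole range. That library also had summed erythroid markers of 5286 CPM, against 34.8 to 141 CPM in the other 3, and the smallest total, 5615941 counts. Car2 alone was at 2473 CPM in it. Beyond the correlation of Prdx2 with the erythroid sum over the 14 libraries, their part in the level of Prdx2 was not tested.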

How the results depend on the processing

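No member passed the test in any comparison under any alternative run, and levels per group mean moved by more than the SD between libraries for Prdx1 in normal Nes-GFP high BMSCs (405 CPM with DESeq2 size factors and 343 CPM with library totals) and Prdx5 in AML Nes-GFP high BMSCs (256 CPM with library totals). Every member had at least 408 counts in each group, so that counting error was small beside the spread between libraries. The fewest counts of a member in a library were the 30 of Cat in normal Nes-GFP high replicate 2, against 378 in replicate 1. Counts of all genes called depended on the tool. In place of 0 by edgeR, DESeq2 called 1593 genes for AML against normal Nes-GFP high and 118 for Nes-GFP low BMSCs, 1737 for high against low BMSCs of normal and 1090 of AML mice, and 768 for the difference of the AML effects. A filter of a mean of at least 10 CPM gave 1 gene for AML against normal Nes-GFP high BMSCs. Leaving out each library in turn gave 0 to 194 genes for AML against normal Nes-GFP high BMSCs, 0 to 189 for high against low BMSCs of normal mice, 0 to 1 of AML mice and 0 to 144 for the difference of the AML effects, and each of the 3 large counts came without normal Nes-GFP high replicate 2, while the counts of 1 came without AML Nes-GFP low replicate 1 and, for AML against normal Nes-GFP high BMSCs, without normal Nes-GFP high replicate 1. A lone sample left in a group was assumed to vary like the other groups. The cause was not tested.

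For AML against normal Nes-GFP high BMSCs, Prdx5 was at -0.029 with DESeq2 and with its size factors. With library totals Sod3 was at 0.011 for AML against normal Nes-GFP low BMSCs, Sod1 and Sod2 were at -0.19 and -0.27 for high against low BMSCs of normal mice, and Prdx1 was at -0.11 for those of AML mice. With no filter Sod1 and Sod2 were at -0.032 and -0.028 for high against low BMSCs of normal mice.

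The labels do not say whether libraries with the same replicate number were paired, and the main fit does not pair them. Of 14 pairs of libraries with the same number, 4 had deviations correlated above 0.1, in a range from -0.16 to 0.43. In groups of 2 libraries the deviations mirror each other, so this check cannot decide whether the numbers mark pairs. With the replicate block edgeR called 0 genes in every comparison, as without it. The signs that turned under the block were those of Sod2 (0.26) and Prdx5 (-0.26) for AML against normal Nes-GFP low BMSCs, of Prdx2 (0.93), Prdx3 (0.47), Prdx5 (0.079) and Prdx6 (0.18) for high against low BMSCs of normal mice, of Sod1 (0.34), Prdx3 (0.67) and Prdx5 (0.40) for those of AML mice, and of Prdx5 (0.32) for the difference of the AML effects.

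Leaving out each library in turn turned the sign of these differences, given by their lowest and highest values. For AML against normal Nes-GFP high BMSCs they were Sod1 (-0.27 to 0.48), Sod2 (-0.11 to 0.95), Cat (-0.31 to 4.46), Prdx3 (-0.91 to 0.48), Prdx5 (-0.18 to 0.36) and Prdx6 (-0.62 to 2.41). For AML against normal Nes-GFP low BMSCs they were Sod2 (-0.44 to 0.050), Sod3 (-0.64 to 0.28), Prdx1 (-0.16 to 0.0069), Prdx2 (-2.27 to 0.084) and Prdx5 (-0.47 to 0.76). For high against low BMSCs of normal mice they were Sod1 (-0.23 to 0.21), Sod2 (-0.54 to 0.39), Prdx5 (-0.42 to 0.50) and Foxo4 (-1.83 to 6.94). For those of AML mice they were Sod1 (-0.60 to 0.21), Sod3 (-0.12 to 1.09), Cat (-2.26 to 0.54), Prdx2 (-3.00 to 0.23), Prdx3 (-0.68 to 0.79), Prdx4 (-1.71 to 1.54), Prdx5 (-0.53 to 0.45) and Txnrd3 (-7.26 to 5.47). For the difference of the AML effects they were Sod1 (-0.68 to 0.13), Cat (-0.59 to 4.21), Prdx2 (-2.44 to 0.79), Prdx4 (-2.65 to 0.60), Prdx5 (-0.72 to 0.51) and Prdx6 (-1.02 to 2.04).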
